A study of Mus musculus with 5 samples.

Results

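Regulatory T cells (Tregs) are described here through 9 genes: Foxp3, Ikzf2, Ikzf4, Izumo1r, Capg, Areg, Ccr8, Maf, and Il10. They were chosen by their RNA levels in Treg clusters of the tumor-draining lymph node (TDLN) and of the tumor in earlier results of the same data, so their levels in these classes are a description and carry no test. They are 9 of the 31950 genes shared by the gene lists of both tissues, and each has 1 row in every matrix. Only the response of these genes to treatment, which played no part in choosing them, was tested.

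The data were counts of unique molecular identifiers (UMIs), each marking 1 captured RNA molecule, from 5 droplet 5′ single-cell reactions. TDLN reactions 1, 2, and 3 held unsorted inguinal node cells of mice with subcutaneous TRAMP-C2 tumors (a mouse prostate adenocarcinoma line), and MC38 reactions 1 and 2 held sorted CD45+ and CD45- cells at a 1:1 ratio from tumors of MC38, a mouse colorectal line. All mice were male wild-type C57BL/6J, 8 to 10 weeks old. Isotype antibodies or combined checkpoint inhibition (CPI), which blocks PD-1 and CTLA4, was given on days 3, 6, and 9, then vehicle or 20 mg/kg ABT-317, a JAK1-selective inhibitor, on day 12, and tissues were taken on day 15. The 4 treatments are called isotype, CPI, isotype + ABT-317, and CPI + ABT-317. The paper's methods give an equal representation of hashtags in each reaction. Both MC38 reactions held all 4 treatments, while those in each TDLN reaction could not be read from the data. For TDLN cells the paper's supplement names isotype, CPI, and CPI + ABT-317, from 2 experiments. Which TDLN reaction came from which experiment is not given in the sample titles. Hashtag antibodies mark the treatment of a cell and no single mouse, and in TDLNs all antibody counts were 0, so no TDLN cell could be given a treatment. Tissue, tumor line, sorting, and Cell Ranger version all differed between TDLN and MC38 reactions and cannot be told apart. For MC38 the paper's methods count the harvest day from implantation, and a figure counts days from enrollment at a set tumor size. The schedule may therefore differ too.

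Tregs are CD4+ T cells that restrain other immune cells, and the transcription factor Foxp3 defines them. Ikzf2 (Helios) and Ikzf4 (Eos) encode Ikaros-family transcription factors found in Tregs, Izumo1r encodes folate receptor 4 (FR4), and Ccr8 encodes a chemokine receptor of tissue Tregs. Areg encodes amphiregulin, a ligand of the EGF receptor through which tissue Tregs promote repair, Il10 encodes a suppressive cytokine, Maf encodes a transcription factor that can drive Il10, and Capg encodes a protein that caps actin filaments. Several of these genes also act outside Tregs: Capg, Maf, Il10, and Areg are made by macrophages and other myeloid cells.

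The 9 genes lie at chrX:7573644-7595245 (Foxp3, plus strand), chr1:69531214-69687245 (Ikzf2, minus), chr10:128630843-128645991 (Ikzf4, minus), chr9:14885814-14903949 (Izumo1r, minus), chr6:72544391-72562983 (Capg, plus), chr5:91139599-91148432 (Areg, plus), chr9:120092114-120094906 (Ccr8, plus), chr8:115682942-115707794 (Maf, minus), and chr1:131019845-131024974 (Il10, plus) in the mouse build GRCm38. Because Areg had the largest change with treatment among the 4 members tested (edgeR, CPI against isotype), its promoter is shown, from 250 bases before to 50 bases after the start of transcription (RefSeq, GRCm38.p6, chr5:91139349-91139648, plus strand). Capitals mark a cAMP response element (TGACGTCA), whose first base lies at position -61, and a TATA box (TATAAA), whose first base lies at position -31. Read on both strands, the first motif was present in 588 of 32851 RefSeq promoters of this length (1.79%) and the second in 4473 (13.6%). Both matches are a description of the letters in this window. An AP-1 site (TGANTCA), present in 7.81% of promoters, was in none of the 6 RefSeq promoter entries of the 5 genes that had one.
Areg promoter: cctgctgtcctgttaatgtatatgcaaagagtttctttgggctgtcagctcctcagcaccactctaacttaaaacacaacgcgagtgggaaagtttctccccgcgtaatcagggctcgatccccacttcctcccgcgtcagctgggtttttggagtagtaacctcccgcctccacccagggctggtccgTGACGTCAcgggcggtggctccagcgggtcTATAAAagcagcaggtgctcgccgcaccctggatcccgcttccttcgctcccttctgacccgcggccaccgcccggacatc

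Of the proteins made from these genes, only FR4 was among the antibodies of the MC38 reactions. The 15-base tags that identify the antibodies used below are shown because protein levels rest on counting them, FR4 for Izumo1r and CD357 (GITR) for Tnfrsf18, a gene of the Treg gate.
Ms.FR4 tag: tgatctaaggtatgc
Ms.CD357 tag: ggcactctgtaacat

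After the filters (200 to under 2500 genes and under 10% mitochondrial UMIs), the TDLN reactions kept 62322, 56229, and 6518 barcodes with medians of 1710 to 1902 UMIs, and the MC38 reactions kept 15219 and 9682 barcodes with medians of 2910 and 3274 UMIs. The paper reports far fewer TDLN cells, so these barcodes are not its set of cells. How many of them were single cells was not tested. Cells were classed by marker UMIs without clustering, and none of the 9 genes was used. A cell in the Treg gate had at least 2 UMIs of Cd3d, Cd3e, and Cd3g, none of CD8, Trdc, B cell, phagocyte, or stromal markers, and at least 3 UMIs from at least 2 of the genes Il2ra, Ctla4, Tnfrsf4, and Tnfrsf18. The gate held 20, 63, and 1 cells in the TDLN reactions and 12 and 19 in the MC38 reactions, with medians of 1601 to 1811 UMIs, and so is a small sample of the T cells (2368, 5279, 349, 211, and 247). The paper, which clustered cells, reports fewer TDLN T cells and more tumor T cells than these. Neither a Cd4 nor a Foxp3 UMI was required. A Cd4 UMI was present in 4, 17, and 0 of these cells in the TDLN reactions and in 4 and 7 in the MC38 reactions. How many cells of the gate were Tregs was not tested. TDLN reactions 1 and 2 shared 4797 barcodes (8.53% of the smaller reaction) and the MC38 reactions 174 (1.80%). TDLN reaction 1 and MC38 reaction 1, of different tissues, shared 1337 (8.79%). No barcode of the Treg gate was shared between reactions. Levels are UMIs of the gene over all UMIs of the class, scaled to counts per 1e+06 (CPM), with exact Poisson 95% intervals that cover counting error only. A lower level can mean fewer expressing cells or less RNA per cell, which sums cannot tell apart.

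Ikzf2 was the most abundant of the 9 genes in the Treg gate of every reaction with more than 1 cell. In TDLN reactions 1 and 2 it was at 1125 (814 to 1516) and 1035 (871 to 1222) CPM, and in MC38 reactions 1 and 2 at 1246 (828 to 1801) and 951 (655 to 1336) CPM. All 4 intervals overlapped. An Ikzf2 UMI was present in 60.0% and 60.3% of TDLN cells of the gate and in 75.0% and 57.9% of MC38 cells. In B cells, which should lack it, the shares were 18.6% and 15.9% in TDLN reactions 1 and 2, with medians of 1637 and 1448 UMIs, against 1648 and 1811 in the gate.

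Foxp3 itself was sparse. It had 9 and 23 UMIs in the gate of TDLN reactions 1 and 2 (236 and 170 CPM) and 3 and 5 UMIs in that of MC38 reactions 1 and 2 (134 and 144 CPM). The intervals of all 4 reactions overlapped. A Foxp3 UMI was seen in 30.0% and 22.2% of TDLN cells of the gate and in 3 of 12 and 3 of 19 MC38 cells, against 1.9% and 2.3% of TDLN B cells. The Foxp3 level of the gate was 16.2 and 9.15 times that over all passing barcodes of TDLN reactions 1 and 2, and 144 and 151 times that of MC38 reactions 1 and 2. Most cells of the gate had no Foxp3 UMI. As Foxp3 is 1 of the 9 genes, its levels here are a description and no check of the gate.

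Among the other transcription factors, Ikzf4 had 0 and 6 UMIs in TDLN reactions 1 and 2 and 2 UMIs in each MC38 reaction. The count of 0 in TDLN reaction 1 allows up to 78.5 CPM by a limit of 3 counts, so Ikzf4 was not measurable there. Maf, in contrast, differed between reactions of the same tissue. It was at 131 (42.5 to 305) and 525 (410 to 662) CPM in TDLN reactions 1 and 2 and at 134 (27.5 to 390) and 346 (179 to 604) CPM in MC38 reactions 1 and 2. The TDLN intervals did not overlap, so reactions of the node differed by more than the counting error.

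The surface receptors were both present in the gate of TDLN reaction 2 and of both tumors. Izumo1r was at 262 and 333 CPM in TDLN reactions 1 and 2 and at 178 and 231 CPM in the tumors, with overlapping intervals. Ccr8 had 23 UMIs in TDLN reaction 2 (170 CPM) and 2 and 4 UMIs in the tumors (89.0 and 115 CPM). In TDLN reaction 1 Ccr8 had 0 UMIs, which allows up to 78.5 CPM, and that lies below the interval of reaction 2 (108 to 255 CPM).

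Of the secreted products, Areg was well measured and Il10 was not. Areg was at 550 (340 to 840) and 488 (377 to 621) CPM in TDLN reactions 1 and 2 and at 445 (213 to 818) and 576 (352 to 890) CPM in the tumors. It was the second most abundant member in 3 of these 4 reactions and lay just below Maf in TDLN reaction 2. An Areg UMI was present in 30.0% and 30.2% of TDLN cells of the gate and in 41.7% and 31.6% of tumor cells, against 2.8% and 3.5% of TDLN B cells. Il10 had 0 and 8 UMIs in the TDLN gates and 0 and 1 in the tumor gates. Capg was at 236 and 362 CPM in TDLNs and at 178 and 86.5 CPM in tumors. The single cell of TDLN reaction 3 held 1 Capg UMI and none of the other 8 genes.

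**Figure D1:**
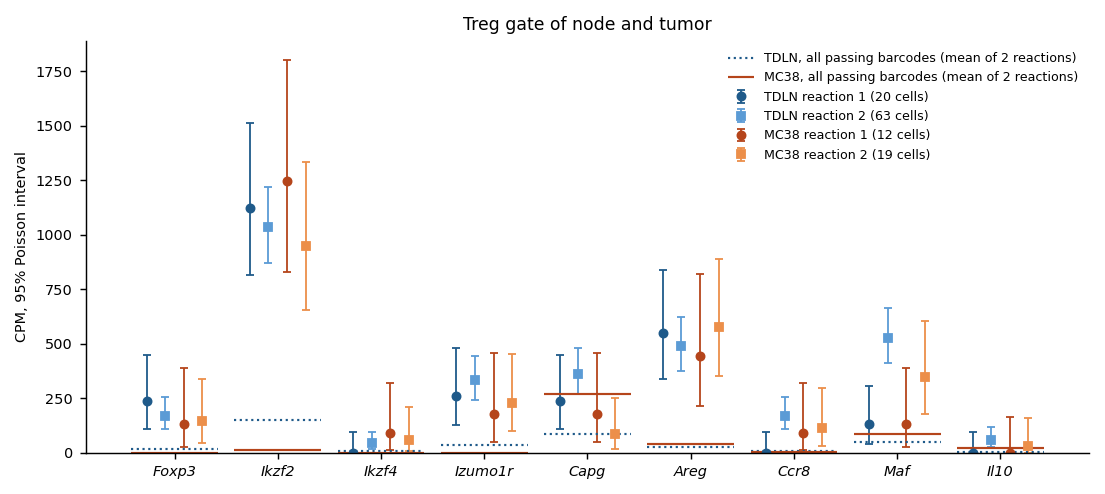
Levels of the 9 genes in the Treg gate of each reaction, as CPM with exact Poisson 95% intervals, beside the level over all passing barcodes. Ikzf2 lies between 951 and 1246 CPM in all 4 reactions, while Maf and Ccr8 differ between TDLN reactions 1 and 2.

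More than 1 of the genes was often detected in a single cell of the gate. At least 2 of the 9 genes had a UMI in 13 of 20 (65.0%) and 43 of 63 (68.3%) cells of the gate in TDLN reactions 1 and 2, and in 9 of 12 (75.0%) and 14 of 19 (73.7%) in MC38 reactions 1 and 2. Among CD4 conventional T cells of TDLNs, which had a Cd4 UMI and none of the gate genes, this held for 8 of 115 and 20 of 181 cells. B cells of the same reactions reached 8.69% and 8.88%. The share in CD4 conventional T cells was thus near the one in B cells, and that in the gate was several times larger. The genes were listed for their Treg levels, and the CD4 conventional class leaves out cells with gate genes. The shares are therefore a description. Whether the genes met in a cell more often than their single shares imply was not tested. In tumors, C1q macrophages had at least 2 of the genes in 25.5% and 27.1% of cells, with more UMIs per cell (medians of 3299 and 3795) than the gate (1635.5 and 1601).

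Treg gate cells of the node and of the tumor were then compared, using UMIs summed over the reactions of each tissue because each tumor reaction gave under 20 cells. For most of the 9 genes the tissues could not be separated. The tumor-to-node ratio was 1.02 for Ikzf2 (95% counting interval 0.751 to 1.37) and 1.06 for Areg (0.673 to 1.62), the only members with at least 20 UMIs in each tissue. It was 0.766 for Foxp3 (0.305 to 1.70), 0.668 for Izumo1r (0.326 to 1.26), 0.799 for Ccr8 (0.266 to 2.02), and 0.605 for Maf (0.323 to 1.06). The Maf value moved with single reactions, to a log2 ratio of 1.07 without TDLN reaction 2 and of -1.70 without MC38 reaction 2. For Ikzf4 it was 2.04 (0.424 to 8.61) and for Il10 0.383 (0.0086 to 2.86), intervals that hold both large increases and large decreases. Capg had the only interval below 1, at 0.363 (0.140 to 0.797), with 59 UMIs in the node and 7 in the tumor.

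These intervals count molecules and ignore spread between mice or reactions. Among the 394 genes with at least 20 UMIs in each tissue, 49.2% had an interval that excluded 1, 144 higher and 50 lower in the tumor, with a median log2 ratio of 0.34. Of the 2 members in that set, Ikzf2 and Areg, neither had such an interval. Capg, with 7 tumor UMIs, lies outside the set, so the share is no background for it. The median log2 ratio of the 9 genes was -0.39. The Capg interval held 1 when TDLN reaction 2 was left out (log2 ratio -1.03, from -2.66 to 0.51) and when MC38 reaction 2 was left out (-0.92, from -2.84 to 0.51).

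**Figure D2:**
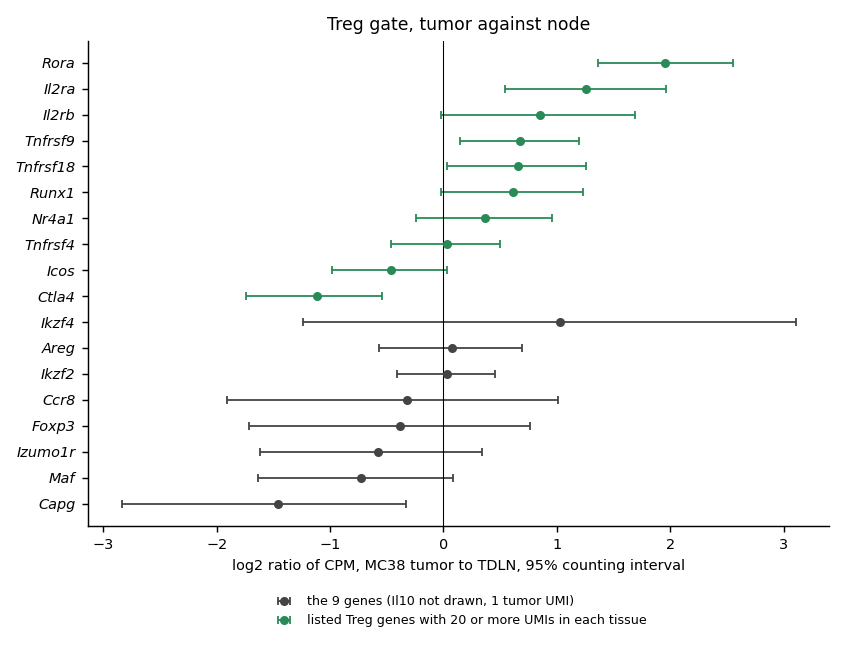
Tumor-to-node ratio in the Treg gate on a log2 axis, from UMIs summed over the reactions of a tissue, with 95% counting intervals. The 9 genes are drawn without Il10, which had 1 tumor UMI. Among them, all intervals drawn but that of Capg cross a ratio of 1. Also drawn are 10 other Treg and activation genes with at least 20 UMIs in each tissue. Of these, Rora, Il2ra, Tnfrsf9, and Tnfrsf18 lie above 1 and Ctla4 lies below it.

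The direction of several ratios depended on how cells were gated. Cells just outside the gate, with 2 UMIs of the gate genes, numbered 153 in TDLNs and 15 in tumors, and cells just inside, with 3 UMIs, numbered 30 and 12. In TDLNs the Ikzf2 level was 252 CPM just outside and 322 CPM just inside, and Areg was at 55.7 and 186 CPM. In tumors Ikzf2 was at 249 CPM just outside and 694 CPM just inside, but Areg was at 166 and 149 CPM, Capg at 291 and 0 CPM, and Ccr8 at 249 and 49.6 CPM, the latter 3 genes from 0 to 7 UMIs each. Allowing up to 1 UMI of other lineages raised the number of cells, so that each reaction kept at least 20 in the tumor, and gave an Ikzf2 mean of 685 ± 117 CPM in the node and 1087 ± 384 CPM in the tumor (SD, n = 2 each). The ratio then was 1.49 (1.18 to 1.86) for Ikzf2 and 1.34 (0.923 to 1.91) for Areg, and that of Capg was 0.850 (0.494 to 1.39), no longer apart from 1. Requiring a Cd4 UMI turned the log2 ratio of Areg from 0.08 to -2.31 and that of Ikzf2 from 0.03 to -1.20, and moved that of Maf from -0.73 to -2.54 with no change of direction. These values rest on few cells: 4, 17, and 0 in TDLN reactions 1 to 3 and 4 and 7 in MC38 reactions 1 and 2. Among T cells without CD8 and with a Foxp3 UMI (37, 84, and 5 cells in TDLNs and 4 in each tumor reaction), the tumor-to-node ratio was 2.46 for Ikzf2 (1.49 to 3.87), with 140 and 22 UMIs, and 3.01 for Areg (1.36 to 5.98), with 52 and 10 UMIs. A Foxp3 UMI was seen in 2.41% and 2.94% of the 2368 and 5279 cells of the T gate of TDLN reactions 1 and 2, beside 1.9% and 2.3% of B cells. In the node cells of the subset Ikzf2 was at 664 CPM (559 to 784), against 155 CPM in the T gate. Areg was at 247 CPM (184 to 324) against 30.5 CPM, and Izumo1r at 214 CPM (156 to 286) against 43.8 CPM. Maf was at 242 CPM (180 to 318) against 53.0 CPM. These genes were chosen by their Treg levels in these data, and the T gate also holds CD8 T cells, so the values are a description. How many cells of the subset carried free Foxp3 RNA was not tested. The tumor side of the Ikzf2 and Areg ratios of the subset rests on 8 cells.

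Markers of other cells moved with tissue. In the Treg gate of TDLN reactions 1 and 2, immunoglobulin genes (Igkc and Ighm) were at 497 and 325 CPM, against 1066 and 1278 CPM in B cells and 844 to 958 CPM over all barcodes of the 3 TDLN reactions. In the Treg gate of the tumors, the C1q genes of macrophages were at 401 and 922 CPM, against 11490 and 14630 CPM in the macrophages. Their part in the member levels was not tested.

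Other Treg and activation genes were taken from a list of 48, of which 45 were detected in the gate of both tissues and 3 in the node only. Of these, 10 had at least 20 UMIs in each tissue. By their intervals 4 of the 10 were higher in the tumor, 1 was lower, and 5 had intervals that held 1, a share close to the 49.2% of all genes. Rora, a nuclear receptor of tissue Tregs and innate lymphoid cells, had the highest ratio at 3.88 (2.58 to 5.87), with 45 UMIs in the node and 57 in the tumor. The receptor genes followed: Il2ra (CD25) at 2.39 (1.46 to 3.89), Tnfrsf9 (4-1BB) at 1.60 (1.10 to 2.29), and Tnfrsf18 (GITR) at 1.58 (1.02 to 2.39). Ctla4, the target of one CPI antibody, was lower in the tumor at 0.461 (0.298 to 0.689). Il2rb at 1.80, Runx1 at 1.53, Nr4a1 at 1.29, Tnfrsf4 at 1.02, and Icos at 0.727 were not apart from 1. Il2ra, Ctla4, Tnfrsf4, and Tnfrsf18 are genes of the gate itself, so their ratios depend on it. Over all 48 genes, 9 had intervals above 1 and 10 below it, and for 9 of these 10 the level over all TDLN barcodes was above the level in the tumor gate. No share of all genes was computed without the limit of 20 UMIs, so nothing is read from these counts.

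Across cell classes of the node, all 9 genes were highest in the Treg gate by the mean over reactions with at least 20 cells. In TDLN reaction 2, 7 of the 7 members with at least 20 UMIs had an interval above that of CD4 conventional T cells, beside 4.33% of the 3788 genes compared. The pattern was one of the properties for which the genes were listed, and nothing is read from the count. Without TDLN reaction 2 the number highest in the gate was 6, because Ikzf4, Ccr8, and Il10 had 0 UMIs in the gate of reaction 1.

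Outside the gate, levels of Foxp3, Ikzf2, and Areg in CD4 conventional T cells and B cells of the node lay near those of the whole reaction. Foxp3 was at 19.0 and 19.2 CPM in CD4 conventional T cells and at 11.7 to 15.7 CPM in B cells, against 14.5 to 20.5 CPM over all passing barcodes. Ikzf2 was at 119 and 106 CPM in CD4 conventional T cells, at 121 to 133 CPM in B cells, and at 135 to 153 CPM over all barcodes. Areg was at 14.2 and 25.6 CPM in CD4 conventional T cells and at 15.8 to 25.7 CPM in B cells. Immunoglobulin genes were likewise at 517 to 819 CPM in CD8 T cells without Ccl5. In CD4 conventional T cells of TDLN reactions 1 and 2 they were at 726 and 654 CPM, against 1066 and 1278 CPM in B cells. T cell receptor genes (Trac, Trbc1, and Trbc2) were at 336 to 412 CPM in B cells of the TDLN reactions. In CD4 conventional T cells of reactions 1 and 2 they were at 498 and 551 CPM. By these genes the node classes were separated only in part. Whether these levels came from free RNA or from the class itself was not tested. Gamma-delta T cells of TDLN reaction 2 (28 cells) stood apart, with Areg at 351 CPM (205 to 562; 17 UMIs in 5 cells) and Maf at 248 CPM (128 to 433), against 28.5 and 61.0 CPM over all barcodes of that reaction. Foxp3 had 4 UMIs there (82.6 CPM, 22.5 to 212). The 15 gamma-delta T cells of reaction 1 had no UMI of Areg, Maf, or Foxp3, which allows up to 105 CPM by a limit of 3 counts. That limit is lower than the upper end of an exact interval, so no difference between reactions 1 and 2 is read for Maf or Foxp3. Of the 1820 Foxp3 UMIs in passing barcodes of TDLN reaction 1, 9 lay in the gate.

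**Figure D3:**
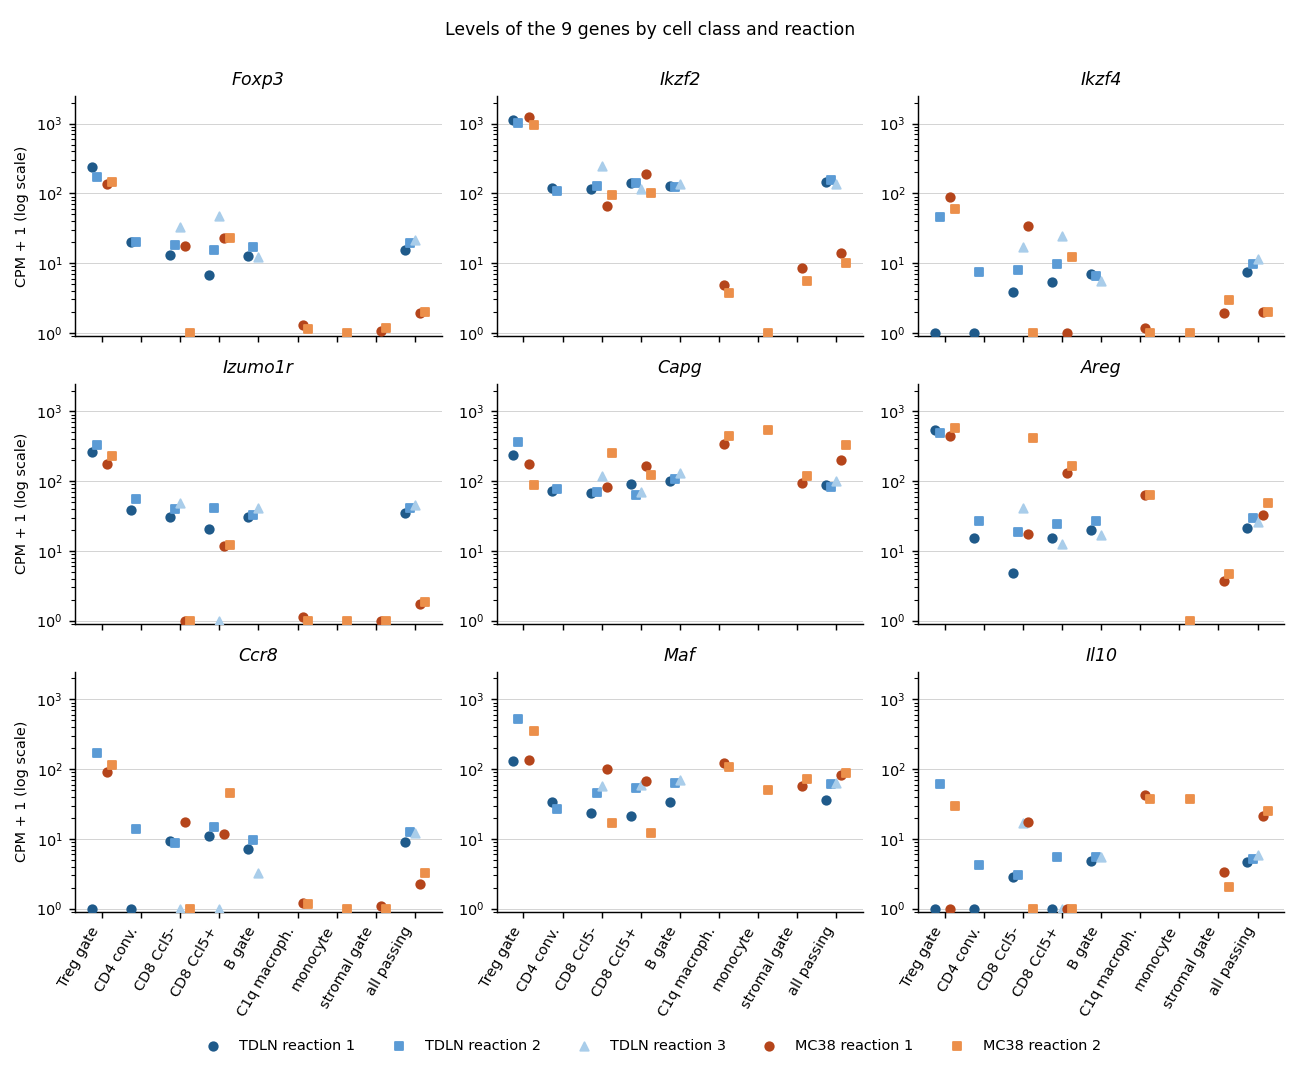
Level of each gene in CPM by cell class and reaction, for sums of at least 20 cells and for the Treg gate. In the node CD4 conventional T cells and B cells sit near the level of all barcodes for Foxp3, Ikzf2, and Areg. In the tumor Capg, Maf, Areg, and Il10 are also present in C1q macrophages. Gamma-delta T cells are not drawn.

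In tumors the level over all passing barcodes was lower than in TDLNs for Foxp3 (0.925 and 0.953 CPM), Ikzf2 (13.1 and 9.05 CPM), Izumo1r, Ikzf4, and Ccr8, and higher for Capg (203 and 332 CPM, against 82.9 to 100.4 CPM), Maf (81.1 and 87.7, against 35.1 to 62.7 CPM), Areg (32.2 and 47.5, against 20.6 to 28.5 CPM), and Il10 (20.4 and 24.2, against 3.62 to 4.86 CPM). Foxp3 was at 0.31 and 0.11 CPM in C1q macrophages of reactions 1 and 2 (4571 and 4361 cells), Ikzf2 at 3.87 and 2.70 CPM, and Izumo1r, Ikzf4, and Ccr8 between 0 and 0.184 CPM. These 5 genes were therefore at or near 0 in macrophages. The other 4 were not. Capg was at 340 and 447 CPM in macrophages, above 178 and 86.5 CPM in the Treg gate, and at 490 and 539 CPM in monocytes (18 and 30 cells). Il10 was at 41.8 and 36.2 CPM in macrophages, where 6.2% and 5.6% of cells had a UMI, while the tumor Treg gate had 1 Il10 UMI in all. Maf was at 122 and 104 CPM and Areg at 61.4 and 62.2 CPM in macrophages.

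Within macrophages Areg RNA was held by few cells. A Maf UMI was found in 31.0% and 29.5% of macrophages and a Capg UMI in 57.4% and 68.6%. An Areg UMI was found in 4.11% and 3.99% (1000 and 1082 UMIs), and in 0.854% and 1.37% of stromal cells, whose medians were 3812.5 and 3780 UMIs against 3299 and 3795. In stromal cells gated on Col1a2, Dcn, and Pdgfra, from which MC38 tumor cells were not separated, Capg was at 92.4 and 117 CPM, Maf at 55.8 and 71.0 CPM, and Areg at 2.7 and 3.6 CPM.

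Tumor CD8 T cells carried part of the pattern. In those with Ccl5 (57 and 67 cells), Ikzf2 was at 185 and 99.7 CPM, Areg at 131 and 166 CPM, and Capg at 164 and 122 CPM. In those without Ccl5 (47 and 49 cells), Areg was at 16.4 CPM (1 UMI) in reaction 1 and 412 CPM in reaction 2, where 26 UMIs came from 5 cells. In the tumor, among the gate and the classes with at least 20 cells in a reaction, 7 of 9 genes were highest in the Treg gate, the exceptions being Capg and Il10. In smaller classes, the 8 CD4 conventional T cells of the tumor had Ccr8 at 354 CPM from 3 UMIs (73.1 to 1036), against 105 CPM in the gate (38.5 to 228), and the 1 gamma-delta T cell had 1 Maf UMI. In MC38 reaction 2, Ikzf2 and Areg, both of the members with at least 20 UMIs, had intervals above those of CD8 T cells with Ccl5 (background 4.79% of 982 genes). Against macrophages it was 3 of 5, Ikzf2, Areg, and Maf (background 6.92% of 11567 genes). The genes were listed for their levels in such classes, and the counts rest on 1 reaction with 19 cells in the gate. Nothing is read from these counts.

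The genes most like each member were sought over 26 sums of a class and reaction with at least 20 cells, by Pearson correlation of log2(CPM + 10). Sums of the same reaction share their background RNA, and the tumor Treg gate had too few cells to enter, so the values describe these sums only. Ikzf2 was closest to Cd5 (r = 0.951), Sh2d1a (0.949), and Tox (0.943), all T cell genes. Izumo1r was closest to 4930417O13Rik (0.921), Ankrd55 (0.882), and Adamts6 (0.865), and Foxp3 to Ncmap (0.867), Ankrd55 (0.865), and Pkp3 (0.851). Ikzf4 was closest to Ccr4 (0.844), Cep83os (0.803), and Actn2 (0.761), and Ccr8 to Trav7-6 (0.836), 6530402F18Rik (0.811), and Phf2os1 (0.797). The genes also found in myeloid cells had other neighbors. Capg was closest to Csf2ra (0.835), Ebi3 (0.826), and Nfkbia (0.808), Areg to Tnfrsf9 (0.793), Cish (0.782), and A430093F15Rik (0.771), Maf to Smpdl3a (0.699), Isyna1 (0.685), and Spcs3 (0.685), and Il10 to Cox7a1 (0.851), Prkar1b (0.800), and Pacc1 (0.782).

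Surface protein of the tumor Treg gate was read from antibody tags, which were used neither for the gate nor for the list. FR4, the product of Izumo1r, was at 146.8 (138 to 156) and 144.5 (138 to 152) per 10000 antibody UMIs in reactions 1 and 2. It was at 139.7 and 143.6 in CD8 T cells with Ccl5 and at 128.8 and 136.9 in macrophages, in which Izumo1r RNA was at or near 0. FR4 protein thus hardly differed between these classes. On this scale the Treg gate was above macrophages in both reactions, and its intervals overlapped those of the CD8 T cells. Per cell the order against macrophages was the reverse, with 91.8 and 85.2 FR4 UMIs in the gate and 103.5 and 106.1 in macrophages. The CD8 T cells with Ccl5 had 83.5 and 82.6 per cell. In the few CD4 conventional T cells (5 and 3) FR4 was at 132.7 (120 to 146) and 163.5 (143 to 186). CD357 (GITR), in contrast, was at 51.6 (46.55 to 56.96) and 61.8 (57.3 to 66.6) in the gate, 34.8 and 37.7 in CD8 T cells with Ccl5, and 24.9 and 27.3 in macrophages. The gate was higher in both reactions, by intervals that did not overlap. GITR is the product of Tnfrsf18, a gene of the gate, so its level is not independent of the gating. CD278 (ICOS) was at 42.6 and 52.3 in the gate, 35.4 and 32.3 in CD8 T cells with Ccl5, and 23.6 and 25.1 in macrophages. CD134 (OX40) did not set the gate apart, at 448 and 498 in the gate, 474 and 510 in CD8 T cells with Ccl5, and 441 and 488 in macrophages. CD304 (neuropilin 1) was at 379 and 390 in the gate and at 407 and 390 in CD8 T cells with Ccl5.

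Lineage proteins also differed between the gate and CD8 T cells. CD8a was at 24.2 and 27.0 per 10000 in the gate, near 21.9 and 23.0 in macrophages and below 44.7 and 44.9 in CD8 T cells with Ccl5. CD4 was at 15.6 and 15.0 in the gate and at 10.9 and 9.7 in those CD8 T cells. The same antibody read 8.09 in stromal cells of reaction 1 and 36.7 in those of reaction 2, above the gate, so the CD4 reading of reaction 2 was not specific to T cells. CD25 did not set the gate apart, at 10.1 and 13.8 against 10.7 and 11.8 in macrophages, and in CD8 T cells with Ccl5 it differed between reactions (56.4 and 11.4). A control antibody without a mouse target (isotype RTK2758) was at 18.8 and 20.3 in the gate and 17.8 and 19.6 in macrophages. With 2 reactions no test of these differences was made.

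**Figure D4:**
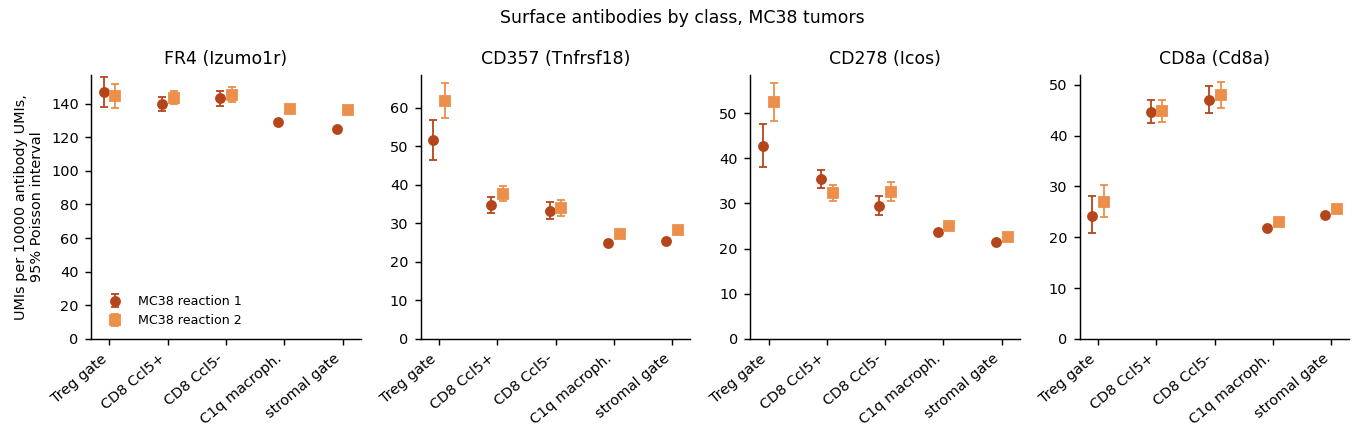
Antibody UMIs per 10000 antibody UMIs by cell class and MC38 reaction, with 95% counting intervals. FR4 lies between 125 and 147 in the classes drawn, whereas CD357 is highest in the Treg gate in both reactions.

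Treatment could be read in MC38 tumors only, and cells of the Treg gate were too few for a test. Of 31 cells of the gate, 29 carried exactly 1 hashtag, 24 of CPI, 5 of isotype, and none of the ABT-317 groups. Of 458 cells of the T gate, 372 carried 1 hashtag, 349 of CPI, 18 of isotype, 5 of CPI + ABT-317, and none of isotype + ABT-317. With a stricter rule, a hashtag leading the next by 1 log unit, 15 cells of the Treg gate were called (12 CPI and 3 isotype) and 98 of the T gate (76 CPI, 9 isotype, 10 CPI + ABT-317, and 3 isotype + ABT-317). Most called cells of the gate carried the CPI hashtag under both rules, while their numbers depended on the rule. Under the first rule the smallest count called differed between hashtags. In reactions 1 and 2 it was 38 and 27 UMIs for CPI and 59 and 38 for isotype. It was 202 and 98 UMIs for CPI + ABT-317 and 90 and 44 for isotype + ABT-317. Of 37774 and 27582 barcodes, 16183 and 7971 carried more than 1 hashtag. The part of these cutoffs in the shares was not tested. The share of CPI hashtags was lower in macrophages (below), and how far hashtag calls depend on cell class was not tested. No contrast of treatments in T cells had 20 cells per group in both reactions, and none was tested.

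C1q macrophages held enough cells in all treatments: 2821 and 3007 for isotype, 101 and 103 for CPI, 203 and 266 for CPI + ABT-317, and 214 and 176 for isotype + ABT-317 in reactions 1 and 2. The UMIs of each treatment and reaction were summed and compared with edgeR's quasi-likelihood test with the reaction as a block and Benjamini-Hochberg adjustment over 7487 genes. Capg, Areg, Maf, and Il10 passed the filter on low counts, and Foxp3, Ikzf2, Ikzf4, Izumo1r, and Ccr8 did not. The samples are 2 reactions, and whether both held cells of the same mice is not stated. The p-values measure the spread between these reactions, whatever its source. However small, they cannot be taken as a measure of the spread between mice, which hashtags did not mark. The contrast of CPI with isotype and that of CPI + ABT-317 with CPI share the CPI sums.

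Areg was higher with CPI in both reactions. It was at 50.4 and 51.0 CPM with isotype, 200.1 and 441.4 CPM with CPI, 142.7 and 130.1 CPM with CPI + ABT-317, and 28.0 and 41.7 CPM with isotype + ABT-317. The CPI values were the highest of their reaction, the CPI + ABT-317 values the next, and the 4 values without CPI the lowest. The level with CPI was above that with isotype by 2.70 ± 0.18 on the log2 scale (SE, adjusted p = 4.02e-16, edgeR), 1 of 4 tested members called beside 24.6% of all genes. The effect was 1.82 in reaction 1 and 2.98 in reaction 2, the same direction at different sizes.

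Areg was lower with CPI + ABT-317 than with CPI, with a log2 difference of -1.30 ± 0.19 (SE, adjusted p = 9.16e-07, edgeR), one of 3 members called beside 15% of all genes. Within reactions the differences were -0.40 in reaction 1 and -1.66 in reaction 2. In isotype-treated tumors the ABT-317 difference was -0.59 ± 0.24 (SE, adjusted p = 0.376, edgeR). In that contrast edgeR called 0 of 4 members, beside 1.6% of all genes, DESeq2 called none, and Areg alone had an unadjusted p under 0.05. The difference between these ABT-317 effects, -0.71 ± 0.33, did not pass (adjusted p = 0.177, edgeR) and was 0.54 in reaction 1 and -1.28 in reaction 2. It passed without the upper limit on genes per cell (-1.03, adjusted p = 0.029, edgeR) and with calls from a hashtag leading by 1 log unit (-1.32, adjusted p = 0.00127, edgeR), where the change of Areg with isotype + ABT-317 was 0.13.

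A larger share of macrophages had Areg RNA with CPI than with isotype. An Areg UMI was present in 83 of 2821 (2.94%) and 92 of 3007 (3.06%) isotype macrophages, and in 11 of 101 (10.9%, exact interval 5.56 to 18.7%) and 17 of 103 (16.5%, 9.92 to 25.1%) CPI macrophages. The CPI + ABT-317 shares were 8.87% and 6.02%, and the isotype + ABT-317 shares were 2.80% and 3.41%. With every cell thinned to 1000 UMIs, which left out 18 and 24 isotype and 6 and 3 CPI cells, the shares were 1.89% and 1.78% for isotype and 6.32% and 10.0% for CPI. They were 6.40% and 3.4% for CPI + ABT-317, so that in reaction 1 the thinned share lay at that of CPI and in reaction 2 below it. CPI macrophages were shallower, with medians of 2321 and 2515 UMIs against 3152 and 3692 for isotype.

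Maf was lower when ABT-317 followed CPI. It was at 123 and 106 CPM with isotype, 151 and 144 CPM with CPI, 81.9 and 62.8 CPM with CPI + ABT-317, and 160 and 117 CPM with isotype + ABT-317. The CPI + ABT-317 values were the lowest of both reactions. The log2 difference of CPI from isotype was 0.38 ± 0.18 (adjusted p = 0.12, edgeR). Maf fell by 1.06 ± 0.22 on the log2 scale from CPI to CPI + ABT-317 (adjusted p = 0.000346, edgeR), and the difference in isotype-treated tumors was 0.22 ± 0.12 (adjusted p = 0.604). The difference between these ABT-317 effects passed the test, at -1.28 ± 0.25 (adjusted p = 0.000246, edgeR), 1 of 4 members called beside 10.7% of all genes.

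For Capg and Il10, 1 of the contrasts passed with the filter on low counts, that of Capg between CPI + ABT-317 and CPI. Capg was at 326 and 433 CPM with isotype, 343 and 409 CPM with CPI, 406 and 593 CPM with CPI + ABT-317, and 375 and 459 CPM with isotype + ABT-317. It was higher with CPI + ABT-317 than with CPI by 0.39 ± 0.12 on the log2 scale (adjusted p = 0.0224, edgeR), a call lost without the block (adjusted p = 0.339) and without the upper limit on genes (adjusted p = 0.054). The difference of the ABT-317 effects on Capg, 0.30 ± 0.15, did not pass (adjusted p = 0.218, edgeR), but passed with no filter on low counts (0.47, adjusted p = 0.046, edgeR). Il10 was at 41.9 and 35.6 CPM with isotype, 16.3 and 25.1 CPM with CPI, 22.5 and 27.4 CPM with CPI + ABT-317, and 46.2 and 23.7 CPM with isotype + ABT-317. Its log2 difference of CPI from isotype, -0.86 ± 0.41, did not pass (adjusted p = 0.13, edgeR).

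**Figure D5:**
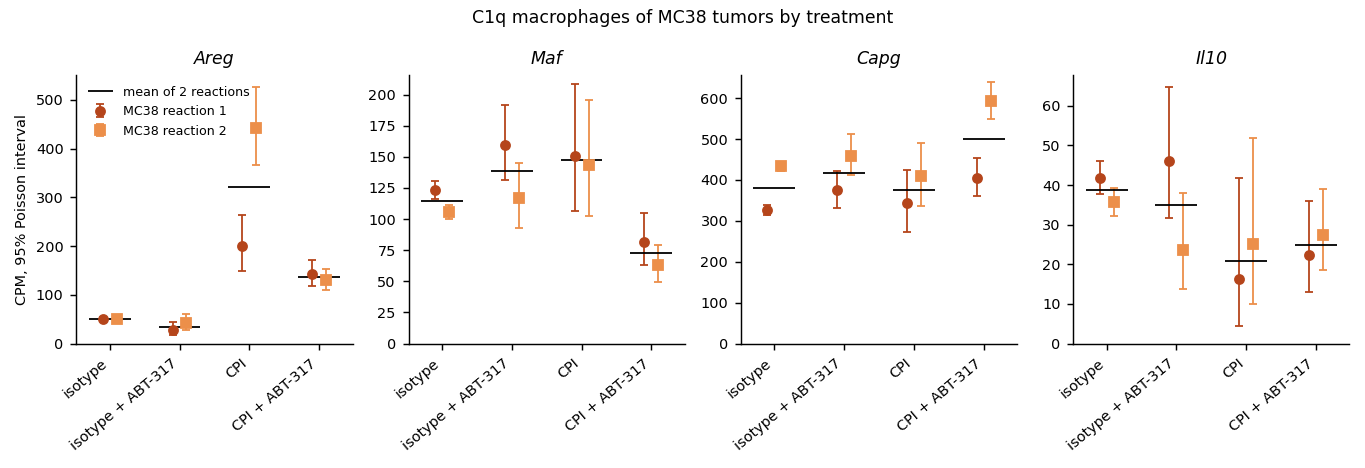
Level in CPM of the 4 members tested in C1q macrophages, by treatment, with 1 point per MC38 reaction and exact Poisson 95% intervals. Areg is highest with CPI in both reactions, and Maf is lowest with CPI + ABT-317.

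The macrophage class itself differed between treatments. The C1q genes were at 7443 and 7888 CPM with CPI, against 11860 and 15090 CPM with isotype, 11410 and 14410 CPM with CPI + ABT-317, and 11700 and 14350 CPM with isotype + ABT-317. Neutrophil genes were at 110 and 53.8 CPM with CPI and 38.7 and 37.3 CPM with isotype, and monocyte genes at 85.7 and 154 CPM with CPI and 70.6 and 69.4 CPM with isotype. Mature DC genes were at 32.7 and 17.9 CPM with CPI and 16.3 and 10.7 CPM with isotype, stromal genes at 106 and 53.8 CPM against 72.5 and 32.1 CPM, and immunoglobulin genes at 36.7 and 7.18 CPM against 62.97 and 69.5 CPM. T cell receptor genes reached at most 4.08 CPM in any sum, and basophil and mast cell genes were at 0 in all 8 sums. Cytotoxic genes were at 332 and 411 CPM with isotype and 274 and 635 CPM with CPI in reactions 1 and 2. They were at 237 and 522 CPM with CPI + ABT-317 and 325 and 231 CPM with isotype + ABT-317. Their order thus differed between reactions. The part of these markers in the Areg and Maf differences was not tested.

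Of the list of 48 Treg and activation genes, 21 were tested in macrophages. Under CPI against isotype 6 rose and 2 fell, 38.1% called beside 24.6% of all genes. Tnfrsf9 rose by 1.74 ± 0.38, Rora by 2.01 ± 0.51, and Runx1 by 0.85 ± 0.12 on the log2 scale (adjusted p = 0.000444, 0.0023, and 4.2e-07, edgeR). From CPI to CPI + ABT-317, 2 rose and 4 fell, 28.6% beside 15%, and Rora (-1.87 ± 0.59, adjusted p = 0.0247) and Runx1 (-0.63 ± 0.14, adjusted p = 0.000542) were among those that fell. With ABT-317 in isotype-treated tumors edgeR called none of the 21, of which 4 had an unadjusted p under 0.05.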

How the data were processed

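The authors deposited raw UMI counts, not normalized, for each gene in each barcode, with antibody counts for the MC38 tumors. Per the file headers they come from Cell Ranger 7.1.0 (TDLN) and 8.0.1 (MC38). The submitters' processing notes name Cell Ranger 3.1.0 and the builds GRCm38 and mm10. The gene lists have 32285 and 33696 rows. Total gene UMIs were 127052825, 105259770, and 18055617 for TDLN reactions 1 to 3 and 435031691 and 377184807 for MC38 reactions 1 and 2.

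The members, gene lists, and gates were chosen with earlier results of these data known. The study's filters were applied (at least 200 and under 2500 genes, under 10% mitochondrial UMIs), and cells were classed by marker UMIs. Barcodes with 1 hashtag above a posterior of 0.5, from normal components fitted to log counts, were given its treatment. Doublets were not called, and the lineage rules remove barcodes with markers of several lineages. The 9 members are always named, with the 3 genes most like each. Genes of the list of 48 are named by their tumor-to-node ratio.

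Sums were compared with edgeR 4.0.16 (TMM, filterByExpr, quasi-likelihood test with reaction as block, adjusted p of 0.05) in R 4.3.3, with DESeq2 1.42.0 as an alternative, and both were tested on simulated counts. Ratios have exact conditional binomial 95% intervals, shares have exact Clopper-Pearson 95% intervals, and 3 counts were taken as the limit behind a count of 0. These cover counting error only. Tables were made with Python 3.11.15, numpy 2.4.6, scipy 1.17.1, and pandas 2.3.3. The same reaction number marks the same droplet reaction in every treatment, and sums of one reaction deviated together over the 4 treatments (r from 0.083 to 0.384 over genes). Treatment tests in T cells were planned and not run because too few cells had a hashtag. Alternatives were the gates, filters, thinning, hashtag rule, normalization, and leaving out reactions, and 2 gates were added after the data were seen.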

Additional observations from a re-analysis of the deposited data

Results flagged for a closer look

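The change of Maf with ABT-317 in C1q macrophages differed between antibody backgrounds. The ABT-317 effect with CPI minus that with isotype was -1.2833 on the log2 scale (SE 0.25, adjusted p = 0.000246, edgeR), and it was past the threshold by a test of the difference itself. Maf was lower with CPI + ABT-317 than with CPI in 2 of 2 reactions and higher with isotype + ABT-317 than with isotype in 2 of 2 reactions. The adjusted p ranged from 3.7e-06 to 0.0154 over the alternatives.

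Foxp3 was also present outside the filter of the study. MC38 barcodes with 2500 or more genes, which the comparisons do not use, held 138 of the 224 Foxp3 UMIs of the MC38 reactions (61.6%), and passing barcodes held 77. These were 32533 of 65356 barcodes and held most of the RNA, so their Foxp3 level was the lower one, at 0.193 CPM in each reaction against 0.925 and 0.953 CPM in passing barcodes. Without the upper limit on genes, the Treg gate of the MC38 reactions still held 12 and 19 cells.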

How the results depend on the processing

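Leaving out 1 reaction at a time gave 0 to 2 members with a tumor-to-node interval excluding 1 in the Treg gate (1 in the report), and 6 to 9 members highest in the gate in TDLNs. The count was 2 with a mitochondrial limit of 20%, 3 with a gate of at least 2 UMIs, 5 with a Cd4 UMI required, 3 with a T list of at least 1 UMI and other lineages up to 1 UMI each (chosen after the data were seen), 0 with each cell thinned to 1000 UMIs, and 2 with the Foxp3 subset. The share of all genes was not computed for these gates, so the counts are no result about the members. Without the replicate block, edgeR called 737 genes for CPI + ABT-317 against CPI, 2 for isotype + ABT-317 against isotype, 297 for the difference of the ABT-317 effects, and 1344 for CPI against isotype. DESeq2 called 29 for isotype + ABT-317 and 488 for the difference. With no filter on low counts, CPI against isotype called 738 higher and 1064 lower, against 994 and 847. The sign of Capg for CPI against isotype, -0.0019 in the report, was 0.03 without the upper limit on genes, 0.0102 with DESeq2 size factors, and 0.00017 without the block. With the hashtag leading by 1 log unit, the isotype + ABT-317 change of Areg was 0.13, and for Il10 the CPI + ABT-317 change was -0.25 and the difference -0.22. Il10 for isotype + ABT-317 was 0.12 without the upper limit. The Areg difference of the ABT-317 effects passed without the upper limit (-1.03, adjusted p = 0.029) and with the leading hashtag (-1.32, adjusted p = 0.00127), Maf for CPI against isotype with the leading hashtag (0.50, adjusted p = 0.018), and the Capg difference with no filter on low counts (0.47, adjusted p = 0.046). Over all alternatives that gave a p, the adjusted p of Areg was 8.5e-55 to 1.06e-06 for CPI against isotype and 8.1e-11 to 0.00699 for CPI + ABT-317 against CPI, and that of Maf for the latter 1.9e-05 to 0.00779. The causes were not tested. Treatment tests of T cells and the Treg gate, and their alternatives, were not run, and no leave-one-out value of the class count could be had for tumors. Gate counts of 12 to 63 cells limit every Treg value.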
